A study of Mus musculus with 2 samples.

Results

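The 10 genes examined here, Fos, Fosb, Jun, Junb, Egr1, Egr3, Npas4, Nr4a1, Arc, and Bdnf, are activity-induced immediate early genes. They were listed by name, and all 10 were found by symbol among the 21887 protein-coding genes on the assembled chromosomes of the GRCm38 RefSeq table. Around each gene, every peak of the Cut&Tag peak list from mouse hippocampus was taken that lay within 50 kb of the gene. Cut&Tag uses an antibody to direct a Tn5 transposase to the chromatin around a protein, so that sequenced fragments pile up where the protein sits. The study used 1 library with an anti-Smad4 antibody and 1 with an IgG control antibody, both from nuclei of hippocampal tissue, and asked where Smad4 binds. The labels give no genotype, age, or treatment of these mice. The single peak list analysed here is tied to the record of the IgG library while its name gives no antibody, so its 5326 peaks are reported without naming an antibody. With 1 list there was no replicate, no contrast between conditions, and no test, and all values below describe this list.

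Immediate early genes are switched on within minutes of synaptic activity, without the need for newly made proteins. Calcium entry and MAP kinase signaling reach them through CREB at cAMP response elements (CREs), through SRF at CArG boxes, and through MEF2 proteins, at promoters and at distant enhancers. In the hippocampus they mark recently active neurons and are required for lasting synaptic change. Smad4 is the shared partner of the receptor-regulated Smads in TGF-β and BMP signaling, and binds short DNA elements, GTCTG among them.

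Fos, Egr3, Nr4a1, and Bdnf each had 1 peak within 50 kb, and Fosb, Jun, Junb, Egr1, Npas4, and Arc had none. The 4 of 10 genes make 40.0% (95% exact binomial interval 12.2% to 73.8%), against 32.8% of all 21887 protein-coding genes. Since a longer gene spans a longer window, the share was also taken over the 14736 protein-coding genes no shorter than Junb (1.84 kb) and no longer than Bdnf (52.3 kb), and it was 31.6%. Both background shares lay inside the interval of the immediate early genes. Per length of sequence searched, the immediate early genes had 3.57 peaks per Mb (95% exact Poisson interval 0.972 to 9.14) against 2.96 for all protein-coding genes and 3.43 for those of the length range. Within 25 kb, with the same 4 peaks, the density was 6.44 per Mb (1.76 to 16.5) against 2.95. No peak overlapped any of the 10 genes, while a peak overlapped 10.9% of protein-coding genes and 6.27% of those of the length range. Counting error is all that these intervals hold, since no second animal was measured. The Poisson intervals here and below also take each peak as independent of the others.

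**Figure D1:**
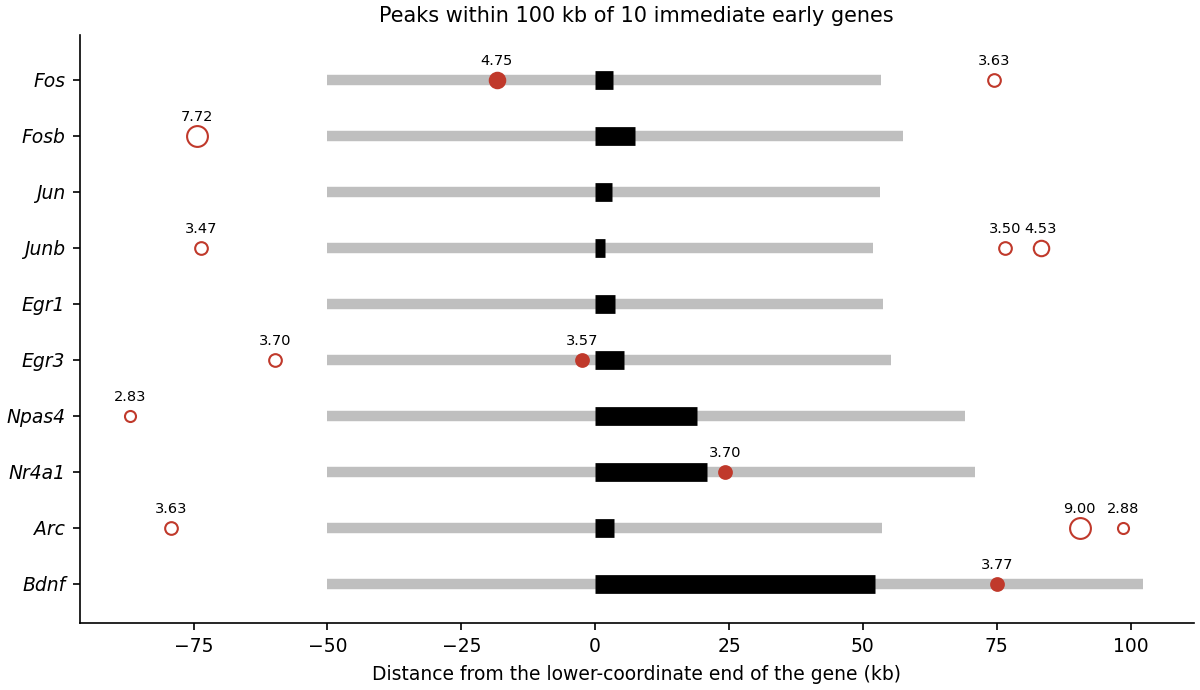
Peaks within 100 kb of the 10 immediate early genes, as distance in kb from the lower-coordinate end of each gene. Black bars are the genes, gray bars the 50 kb windows, filled circles peaks within the window, and open circles peaks 50 to 100 kb away; circle area grows with pileup and the printed value is the fold enrichment. Filled circles are seen only at Fos, Egr3, Nr4a1, and Bdnf, and none lies on a gene.

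Among the genes of the AP-1 family, which pair as Fos-Jun dimers, the 10 genes hold Fos, Fosb, Jun, and Junb, and of these Fos alone had a peak in its window. Fos lies on chromosome 12 from 85473890 to 85477274. Its peak spanned 85455314 to 85455550, 237 bp wide with the summit at 85455504, and lay 18.3 kb upstream of the Fos start site, with no protein-coding gene between them. The signal at the summit was enriched 4.75-fold over background at a −log10 q of 2.68, and 5 fragments overlapped there (the pileup). The peak lay inside the long noncoding RNA gene Gm38543, 1598 bp from its nearer end, so the nearest gene end was that of Gm38543 and not that of Fos. It was the strongest of the 4 peaks by all 3 of these measures, and 24.4% of the peaks of the list had a −log10 q at least as high.

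Egr3, a zinc finger transcription factor that acts downstream of synaptic activity in memory, had the closest peak of the 10 genes. The gene lies on chromosome 14 from 70077317 to 70082613, and the peak, from 70074595 to 70074859, lay outside it, 2458 bp below its lower-coordinate end. It was 265 bp wide and rested on 3 fragments. Its 3.57-fold enrichment and its −log10 q of 1.65 were the lowest of the 4 peaks. Of the 10 genes, Egr3 alone had a peak less than 3 kb from a gene end, a share of 10.0% (95% exact binomial interval 0.253% to 44.5%) against 5.3% of all protein-coding genes. The q-value was 0.0226, so this peak is not in the list when the q-value has to be at most 0.01.

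Nr4a1, an orphan nuclear receptor induced by activity, lies on chromosome 15 from 101253902 to 101274795. Its peak, from 101278178 to 101278485, lay 3383 bp beyond the 3′ end and 11332 bp from the start site given in the promoter table. It was enriched 3.70-fold with a −log10 q of 2.20, again from 3 fragments.

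Bdnf encodes a secreted neurotrophin that strengthens synapses, and its transcripts start at several promoters. The gene, on chromosome 2 from 109674700 to 109727043, had 7 start sites in the promoter table. The peak, from 109749818 to 109750054, lay 22.8 kb beyond the 3′ end, 26897 bp from the nearest of these start sites and 75118 bp from the farthest. Its enrichment was 3.77-fold, its −log10 q 2.55, and its pileup 3. For Egr3, Nr4a1, and Bdnf, the nearest gene end of any type to the peak was that of the immediate early gene itself, and for all 4 genes it was so among protein-coding genes. Fos and Bdnf have no other protein-coding gene within 50 kb, so among protein-coding genes the outcome for their peaks was fixed by gene spacing. The same share was not taken over peaks near other genes, so no link between peak and gene follows.

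The 4 peaks rested on few fragments. Their pileups of 5, 3, 3, and 3 compare with a median of 2 in the list. There, 53.4% of peaks had a pileup of 2, 46.6% one of 3 or more, and 19.2% one of 5 or more. Such low whole numbers leave many peaks with identical values. In all, 370 peaks of the list had the fold enrichment and −log10 q of the Bdnf peak, 145 those of the Nr4a1 peak, 77 those of the Egr3 peak, and 16 those of the Fos peak. The 4 widths, from 237 to 308 bp, lay around the median of 287 bp. Of the 4 peaks, 3 had a q-value of at most 0.01, as did 2057 of the 5326 peaks of the list. None had 0.001 or less, and none reached a fold enrichment of 5, while 1187 and 912 of the 5326 did so. With only 4 peaks, these counts do not set them apart from the list. The nuclei came from whole tissue, so strong signal in few nuclei and weak signal in many cannot be told apart.

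**Figure D2:**
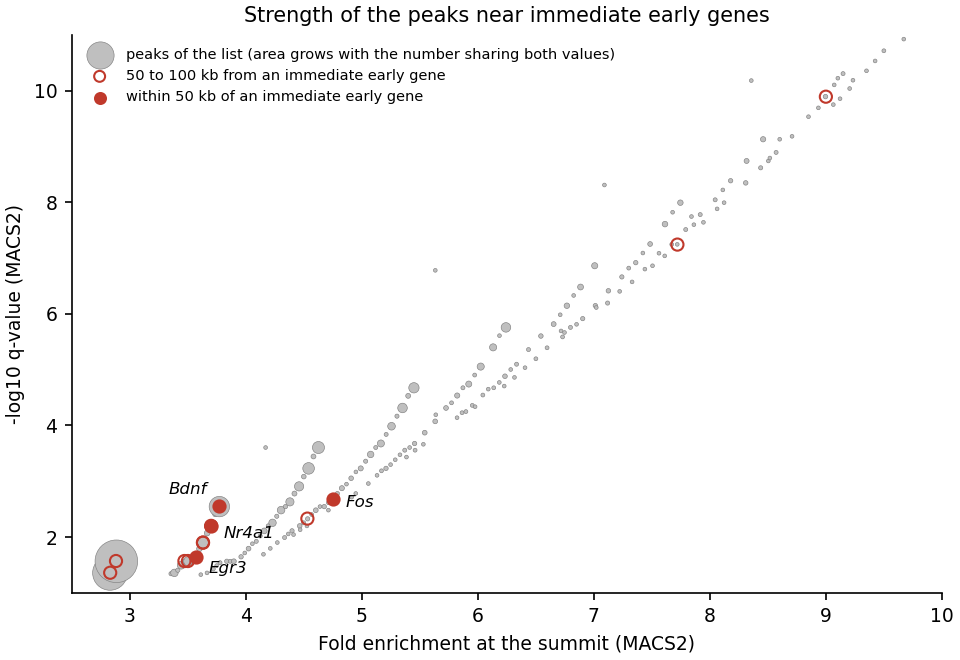
Fold enrichment (x axis) and −log10 q (y axis) of the peaks of the list, both as MACS2 gave them, with the list in gray and peaks near immediate early genes in red. Both axes are cut, so the strongest peaks of the list are not drawn. The peaks within 50 kb (filled) of Fos, Egr3, Nr4a1, and Bdnf lie between 3.57 and 4.75 in fold enrichment, and 2 of the peaks 50 to 100 kb away (open) lie above 7.

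None of the promoters that could be examined held a peak. The RefSeq promoter table (GRCm38.p6) gives windows of 300 bases, from 250 before to 50 after a start site, and 7 of the 10 genes had at least 1 window in it, 13 windows in all, of which 7 belong to Bdnf. Arc, Egr1, and Egr3 had no entry. The peak closest to any of the 13 windows was 11.3 kb away, that at Nr4a1. Of all 32851 windows in the table, 1.34% were overlapped by a peak, so few promoters of any kind were marked in this list.

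The sequences of these promoters are shown to place letter matches to such elements beside the absence of peaks. Whether activity acts through these matches was not measured. The CRE core TGACG, read on either strand as TGACG or CGTCA, was found in 6 of the 13 windows, from Fos, Fosb, Junb, Npas4, Nr4a1, and Bdnf, and in 20.8% of all windows. The stretches below run 5′ to 3′ along the gene, are RefSeq sequence of GRCm38.p6, and count bases from the start site, with the CRE core and the TATA box (TATAAA) in capitals.
Fos promoter, chr12:85473741-85473883, plus strand, bases -149 to -7: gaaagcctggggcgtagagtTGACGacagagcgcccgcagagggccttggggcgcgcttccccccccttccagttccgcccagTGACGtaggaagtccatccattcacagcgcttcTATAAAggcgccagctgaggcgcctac
Fosb promoter, chr7:19310046-19310125, minus strand, bases -80 to -1: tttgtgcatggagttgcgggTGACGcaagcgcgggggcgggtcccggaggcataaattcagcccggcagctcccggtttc
Junb promoter, chr8:84978795-84978874, minus strand, bases -126 to -47: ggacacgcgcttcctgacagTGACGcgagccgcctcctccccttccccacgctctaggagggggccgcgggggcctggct
Npas4 promoter, chr19:4990081-4990170, minus strand, bases -199 to -110: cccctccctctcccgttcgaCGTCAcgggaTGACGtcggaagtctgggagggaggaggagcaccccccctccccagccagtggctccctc
Nr4a1 promoter, chr15:101266596-101266865, plus strand, bases -250 to 20: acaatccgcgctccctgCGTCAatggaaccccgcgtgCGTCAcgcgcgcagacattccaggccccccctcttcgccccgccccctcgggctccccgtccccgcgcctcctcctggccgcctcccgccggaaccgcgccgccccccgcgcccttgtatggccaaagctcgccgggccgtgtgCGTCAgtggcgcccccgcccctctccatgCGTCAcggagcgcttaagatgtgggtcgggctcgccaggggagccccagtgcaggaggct
Bdnf promoter, chr2:109692381-109692460, plus strand, bases -55 to 25: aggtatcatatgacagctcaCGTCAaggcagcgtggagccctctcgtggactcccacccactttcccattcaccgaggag

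The Nr4a1 window held 4 CRE cores, those of Fos and Npas4 held 2, and those of Fosb, Junb, and Bdnf held 1. The Fos stretch also shows its TATA box, and a TATA box, read on either strand, was found in the windows of Fos and Junb and in 13.6% of all windows. It began at base -33 in the Fos window. In the Junb window it began at base 1, the annotated start site itself, outside the stretch printed above. The full CRE TGACGTCA, present in 1.79% of windows, was in none of the 13, and neither was the CArG box, present in 1.63%. Sequence outside the windows, such as that farther upstream, was not searched, and Arc, Egr1, and Egr3 had no window. Whether these genes have a full CRE or a CArG box elsewhere was thus not tested. The Smad element GTCTG, read on either strand as GTCTG or CAGAC, was found in 6 of the 13 windows (46.2%), from Bdnf, Npas4, and Nr4a1. It was in 49.6% of all windows, and other Smad elements than this and the palindrome below were not counted. The Smad palindrome GTCTAGAC, which holds neither GTCTG nor CAGAC, was in none of the 13 windows and in 0.213% of all. The AP-1 element TGANTCA was found in 1 Bdnf window and in 7.81% of all. A match of letters is not a measured binding site.

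The 6 genes without a peak in their window fell into 2 groups by distance. Fosb, Junb, Arc, and Npas4 had their nearest peak 74.4, 73.7, 79.2, and 86.8 kb away, and Jun and Egr1 had it 388 and 412 kb away. Fosb and Junb, AP-1 subunits, lie on chromosome 7 from 19302696 to 19310118 and on chromosome 8 from 84976909 to 84978748. Arc, which encodes a postsynaptic protein that drives removal of AMPA receptors, lies on chromosome 15 from 74669081 to 74672570. Npas4, a neuron-restricted transcription factor that responds to calcium, lies on chromosome 19 from 4984353 to 5003439. Jun, the main partner of Fos, lies on chromosome 4 from 95049036 to 95052222, and its nearest peak had a fold enrichment of 2.83 and a pileup of 2. Egr1, a zinc finger factor widely used to mark active neurons, lies on chromosome 18 from 34861207 to 34864956, and its nearest peak had a fold enrichment of 2.88 and a pileup of 2.

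Over the 10 genes the nearest peak was 74.0 kb away in the median, against 110 kb over all protein-coding genes and 108 kb over those of the length range above. It was closer than the median of all protein-coding genes for 8 of the 10 genes. The Egr3 peak was the closest, and 12.7% of protein-coding genes had a peak at least as close. Most of these were the 10.9% of genes that a peak overlapped, and they are part of every such share. For Nr4a1, Fos, and Bdnf the shares with a peak at least as close were 13.1%, 20.3%, and 22.2%. For Jun and Egr1 they were 82.4% and 83.7%, so most genes had a peak closer than these genes did.

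**Figure D3:**
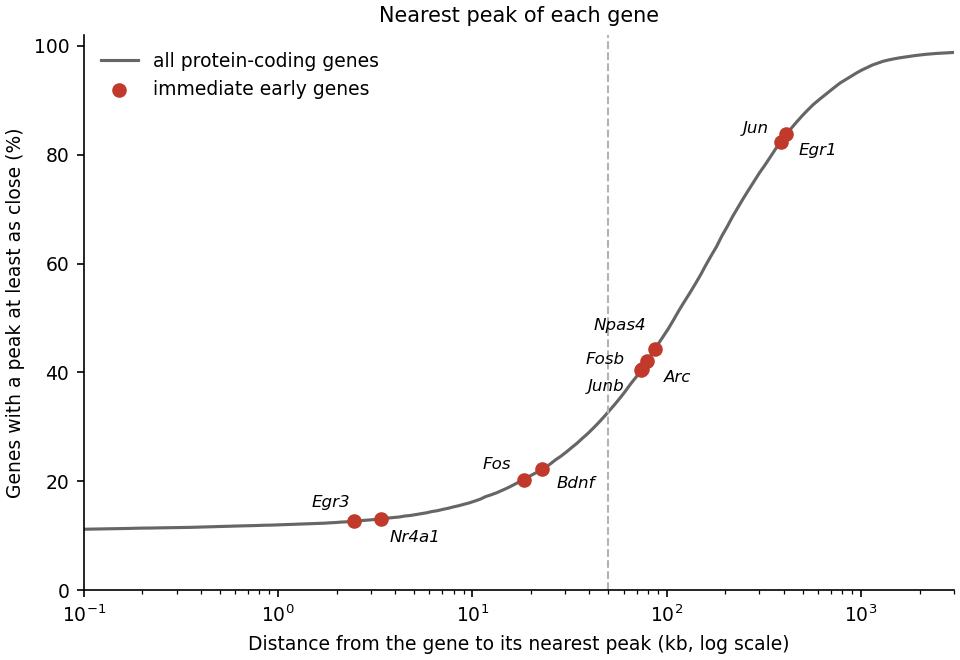
Share of all protein-coding genes (gray line, in percent) with a peak at least as close as the distance on the x axis (kb, log scale), with the 10 immediate early genes as red points and the 50 kb limit dashed. Genes overlapped by a peak are counted at every distance. Egr3, Nr4a1, Fos, and Bdnf lie left of the limit, Junb, Fosb, Arc, and Npas4 between 73.7 and 86.8 kb, and Jun and Egr1 at 388 and 412 kb.

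The genes differ in how crowded their surroundings are, and so does the share of all genes with a peak. Of protein-coding genes with no other protein-coding gene within 50 kb, 24.9% had a peak in the window, and of those with 5 to 8 such neighbors 38.8% did. With 1 to 2 and 3 to 4 neighbors the shares were 30.8% and 34%, and with 9 or more 37.1%. Among the immediate early genes, Fos, Jun, and Bdnf had no such neighbor, and Fos and Bdnf had a peak. Fosb, Junb, and Npas4 had 7, 8, and 6 neighbors, and none of them had a peak. Egr3, with 1 to 2 neighbors, had a peak, and of Egr1, Nr4a1, and Arc, with 3 to 4, Nr4a1 did. Each class holds at most 3 of the 10 genes, and the differences between classes were not tested.

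With a window of 100 kb, 8 of the 10 genes had a peak, 80.0% (95% exact binomial interval 44.4% to 97.5%) against 47.6% of all protein-coding genes, with the background inside the interval. Counted per length of sequence it was not inside: 14 peaks gave 6.60 per Mb (95% exact Poisson interval 3.61 to 11.1), and all protein-coding genes had 2.94 and those of the length range 3.33. Junb and Arc, with 3 peaks each, held 6 of the 14. Some of these lay close together, as those starting at 85053414 and 85060093 near Junb and at 74759542 and 74767691 near Arc. The Poisson interval takes peaks as independent, so it is too narrow for such groups, and an excess was not tested. Without Junb and Arc the density was 4.66 per Mb (2.01 to 9.19). They were left out for their high counts, which lowers the density by construction, so this value is a description only. The 10 peaks added by the wider window lay at 6 genes, Fos, Fosb, Junb, Egr3, Npas4, and Arc. For none of these 10 peaks was the immediate early gene the nearest protein-coding gene.

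Other genes of the same response were taken from 2 further lists. Of 48 other activity-induced genes, such as Egr2, Nr4a2, and Dusp1, 18 had a peak within 50 kb (37.5%, 95% exact binomial interval 24.0% to 52.6%). Of 35 regulators of activity-induced transcription, such as Creb1, Srf, and Mef2c, 16 did (45.7%, interval 28.8% to 63.4%), and both intervals hold the background of 32.8%. The regulators are longer genes, with a median of 69.8 kb against 17.2 kb for all protein-coding genes. A peak overlapped 9 of the 35 regulators (25.7%) and 4 of the 48 activity-induced genes (8.33%), beside 10.9% of all protein-coding genes. Per length of sequence within 50 kb, the regulators had 3.38 peaks per Mb (95% exact Poisson interval 2.19 to 5.0) against 2.96 for all protein-coding genes, and within 1 kb 3.29 (1.75 to 5.62) against 2.93. In narrower windows the activity-induced genes had a higher density of peaks than all protein-coding genes, with 8.32 per Mb (95% exact Poisson interval 3.59 to 16.4) against 2.92 within 3 kb, 6.73 (3.36 to 12.0) against 2.92 within 10 kb, and 5.86 (3.47 to 9.26) against 2.95 within 25 kb. Over the protein-coding genes of the length range of the 10 immediate early genes, the densities were 3.90, 3.63, and 3.55 per Mb, which these intervals hold.

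Less than 3 kb from a gene end, 5 of the 48 activity-induced genes (10.4%) and 1 of the 35 regulators (2.86%) had a peak, beside 5.3% of all protein-coding genes. Rgs2, a regulator of G protein signaling, had a peak across its higher-coordinate end, its start site, enriched 5.37-fold from 6 fragments. At Bhlhe40, a transcriptional repressor of the circadian clock, the peak ended 1 bp below the lower-coordinate end and was enriched 5.53-fold from 8 fragments. Klf10, first described as a TGF-β-inducible early gene, had a peak 170 bp above its higher-coordinate end (4.41-fold, pileup 6). Jund, the Jun-family subunit of AP-1 not among the 10 genes, had a peak inside the gene, 944 bp from the start site (4.33-fold, pileup 5). Spry4, an inhibitor of receptor tyrosine kinase signaling, had a weak peak 2153 bp below its lower-coordinate end (2.86-fold, pileup 2). Among the regulators, the peak of Crtc2, a coactivator of CREB, lay 86 bp inside the lower-coordinate end of the gene and was enriched 5.92-fold from 6 fragments. The Rgs2, Bhlhe40, and Crtc2 peaks thus had higher fold enrichments than all 4 peaks within 50 kb of the immediate early genes.

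**Figure D4:**
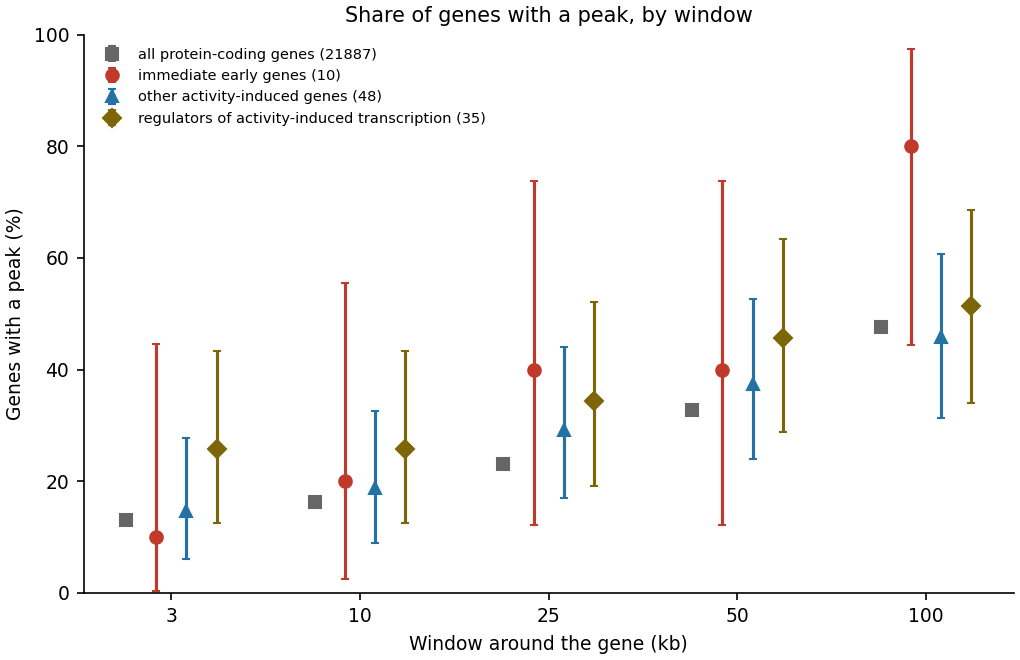
Share of genes with a peak (percent) within 3, 10, 25, 50, and 100 kb of the gene for all protein-coding genes (squares), the 10 immediate early genes (circles), the 48 other activity-induced genes (triangles), and the 35 regulators (diamonds). Bars are 95% exact binomial intervals; those of the immediate early genes hold the share of all protein-coding genes at every window drawn.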

How the data were processed

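Cut&Tag libraries from hippocampal nuclei were sequenced as paired-end reads. The submitters' processing notes name BWA, MACS2, HOMER, and mm10 (GRCm38), without versions. The authors ran MACS2 on uniquely mapped reads with a cutoff of 0.05. The use of the IgG library as control is not given in the sources used here. Each deposited peak carries a score (10 times the −log10 q, cut to a whole number), a fold enrichment over background, a −log10 p, and a −log10 q, and the p-value and q-value behind these are the authors' MACS2 values. Read totals were not analysed here.

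Distances ran from the peak interval to the gene, and a peak that overlapped a gene was at no distance from it. Counts less than 3 kb from a gene end, and the nearest gene end of a peak, used the distance to the nearer end instead. Pileups were recovered from the fold enrichment, taken as (pileup + 1) / (background + 1), and the Poisson −log10 p, and matched within a relative tolerance of 0.001 for all 5326 peaks. This and the distance counts were tested on simulated data. All values describe 1 list. In place of random genes of like length, the share over all protein-coding genes, and over those within the length range of the 10 genes, is given. The genes named by rule are the 10, the nearest genes of their peaks within 50 kb, genes between one of the 10 and its nearest peak (such as Opa3 and Klf1), and genes of the 2 further lists with a peak under 3 kb from an end. Other genes of these lists are named only as examples of what the lists hold, and Ly6d and Adgrb1 were named after their values were seen. The 10 genes and all lists were chosen with earlier results of these data known. Other windows, thresholds, summits, and gene sets were tried. Python 3.11.15, NumPy 2.4.6, pandas 2.3.3, SciPy 1.17.1, and matplotlib 3.10.9 were used.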

Additional observations from a re-analysis of the deposited data

How the results depend on the processing

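No paired analysis was possible because only 1 peak list was analysed. The 4 genes stayed the same with a 25 kb window, a pileup of at least 3, and summits. The values below changed by construction, with fewer peaks, another window, or another set of genes or reference points. Genes with a peak and gene-peak pairs were 2 and 2 within 10 kb (Egr3 and Nr4a1), 8 and 14 within 100 kb, 0 and 0 at q-values of at most 0.001, and 0 and 0 with a fold enrichment of at least 5. The distance from 50 to 100 kb alone, chosen after seeing the data, held 10 peaks, and 100 kb without Junb and Arc, chosen likewise, held 8. The background of 32.8% was 16.3%, 23.1%, and 47.6% at 10, 25, and 100 kb, 16.5% and 9.52% at q-values of at most 0.01 and 0.001, 7.77% at a fold enrichment of at least 5, 20% at a pileup of at least 3, 26.8% over genes of any type, and 31.6% in the length range. The other activity-induced genes with a peak fell from 18 to 9 at 10 kb and to 7 at a q-value of at most 0.001 or a fold enrichment of at least 5. The regulators fell from 16 to 9 at 10 kb, to 10 and 4 at q-values of at most 0.01 and 0.001, and to 2 at a fold enrichment of at least 5. Near an end, the count of 1 gene (Egr3) was 0 within 1 kb, 2 within 10 kb, 0 when q-values had to be at most 0.01, and 0 with start sites alone, which were at hand for 7 genes and not for Egr3. The share of peaks whose nearest gene was the immediate early gene rose from 75% to 100% with protein-coding genes alone. In all, 23 alternative values stayed within 1.5 times the count or within the interval of the share, and 31 did not. In 53.4% of the peaks of the list the pileup was 2. Depth itself was not measured, so its limit on these counts is unknown.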

Other observations

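Peaks were dense between 50 and 100 kb from the immediate early genes, a distance looked at after the values were seen. It held 10 peaks around 10 genes, 10.0 per Mb (95% exact Poisson interval 4.80 to 18.4), against 2.93 per Mb for all protein-coding genes and 4.09 per Mb for those with 5 to 8 protein-coding neighbors within 50 kb. That interval takes the peaks as independent, though some near Junb and Arc lay close together, so it is too narrow. Junb and Arc had 3 of these peaks each, and without these 2 genes, left out for their high counts, the density was by construction lower, 5.0 per Mb (interval 1.36 to 12.8). For the 48 other activity-induced genes it was 2.92 per Mb.

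Most of these peaks lay near other genes. Of the 10, 6 were within 3 kb of an end of another protein-coding gene, against 18.1% of all peaks of the list. These sets are unlike, since the 10 lie within 100 kb of a protein-coding gene by selection and the list has no such limit. The peak 71.1 kb above Fos was an exception, outside any gene and 50040 bp from the nearest protein-coding gene end. Another was the peak 59.8 kb below Egr3, inside another protein-coding gene and 42404 bp from the nearest such end. A Junb peak and the Npas4 peak lay 3905 and 9100 bp from one. The strongest of the 10 peaks, 87.0 kb above Arc, was enriched 9.0-fold at a −log10 q of 9.89 from 10 fragments. It lay 2304 bp from Ly6d, a gene of the Ly6 family of surface proteins, with 7 protein-coding genes between the peak and Arc. The peak 74.4 kb below Fosb had a fold enrichment of 7.72 and a pileup of 10 and lay 50 bp from an end of Opa3, which encodes a mitochondrial protein. On the other side of Arc, a peak with a fold enrichment of 3.63 lay 69 bp from an end of Adgrb1, an adhesion receptor found at synapses. Below Junb, a peak with a fold enrichment of 3.47 lay inside Klf1, the erythroid Krüppel-like factor, 981 bp from an end.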
